A study of Mus musculus with 4 samples.

Results

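The strong REST regions are 311 of 2709 regions that were enriched in a REST chromatin immunoprecipitation library from mouse embryonic stem cells. They were chosen by their REST reads: the highest window of each held at least 20 times the REST reads of its background, and regions that overlapped enriched regions of all 3 other libraries were left out. The remaining 2193 REST regions outside that exclusion, called weaker REST regions below, had a highest window under 20-fold. A further 205 REST regions were called in all 4 libraries, and 42 of those reached 20-fold.

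REST is a zinc finger protein that binds a long DNA element and recruits corepressor complexes, through which it silences neuronal genes outside neurons. Ring1b, the catalytic subunit of Polycomb repressive complex 1, places ubiquitin on histone H2A at developmental genes. MCAF1 (ATF7IP) works with the H3K9 methyltransferase SETDB1. Trimethylation of histone H4 at lysine 20 (H4K20me3) is typical of constitutive heterochromatin.

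All 4 libraries came from V6.5 embryonic stem cells (strain C57BL/6-129), which are grown on irradiated fibroblast feeders. The cells spent 1 passage off feeders before the REST experiment and 2 passages before the Ring1b, MCAF1 and H4K20me3 experiments, per the labels' protocols. Chromatin fragments averaged 500 bp, and ligated DNA was amplified over 18 cycles. A gel slice of 150 to 350 bp was taken for REST and H4K20me3, and one of 150 to 300 bp for Ring1b and MCAF1. There was 1 library per antibody, so antibody, culture and sequencing run cannot be told apart, and no difference between antibodies or between region classes was tested. No input library was used here.

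The REST library held 3584684 reads with 1 reported location, Ring1b 3296354, MCAF1 12564624 and H4K20me3 7947440. With 1 read kept per position and strand, an average covered window of 1000 bp held 1.36 REST, 1.34 Ring1b, 4.79 MCAF1 and 3.38 H4K20me3 reads. A fold is the read number of a window over its background, which is the larger of the genome mean and the mean over the surrounding 1 Mb. All intervals are 95% intervals. Those of read numbers, folds and density ratios are exact and cover counting error only, because amplified reads are not independent molecules. Those of shares and medians of regions treat the regions as independent draws, and those of medians come from the ranked values. Positions refer to mm8 and count from 1. Gene context and sequence under the regions were not analysed here.

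REST enrichment covered a short stretch in most strong regions. The REST folds, which chose the regions and are given as a description, lay between 20.02 and 157, with a median of 26.2 and quartiles of 22.5 and 35.3. The highest windows held 28 to 312 distinct REST reads, with a median of 53. Of all covered windows, 0.1% were called for REST and 0.0144% were called with 20-fold or more. The members just above the limit had folds of 20.02 to 20.19, and the weaker regions just below it had folds of 19.84 to 19.95, so the boundary falls in a continuous range. The number of strong regions depends on the rule: it was 948 with windows of 500 bp, 639 with the genome mean as the only background, 585 from 15-fold and 117 from 30-fold.

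The highest region lay at chr7:6013501-6015000 and reached 157-fold (139 to 177) from 278 REST reads. Its highest window also held 24 Ring1b reads (17.9-fold), 25 MCAF1 reads (4.596-fold) and 5 H4K20me3 reads (1.19-fold). Ring1b and MCAF1 were called there as well, while H4K20me3 was near its background. The next regions were one on chromosome 18 with 115-fold REST and 9.58-fold Ring1b, and chr4:21802501-21804000 with 114-fold REST and 14.4-fold Ring1b. In chr4:21802501-21804000 the MCAF1 fold was 4.38 and the H4K20me3 fold was 1.77.

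Ring1b folds differed widely among the 10 regions with the highest REST folds. The region at chr6:121438001-121439500, with 93.9-fold REST, had 16.2-fold Ring1b and 4.27-fold H4K20me3. The region at chr8:14072001-14073500 had almost the same REST fold, 90.8, but 4 Ring1b reads, or 2.06-fold (0.562 to 5.28). Its 28 MCAF1 reads were 3.83 times background, and its 5 H4K20me3 reads were 0.805 times background. Ring1b thus ranged from 2.06-fold to 17.9-fold at REST folds between 86.1 and 157, and none of these 10 windows was without a read of any library.

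**Figure D1:**
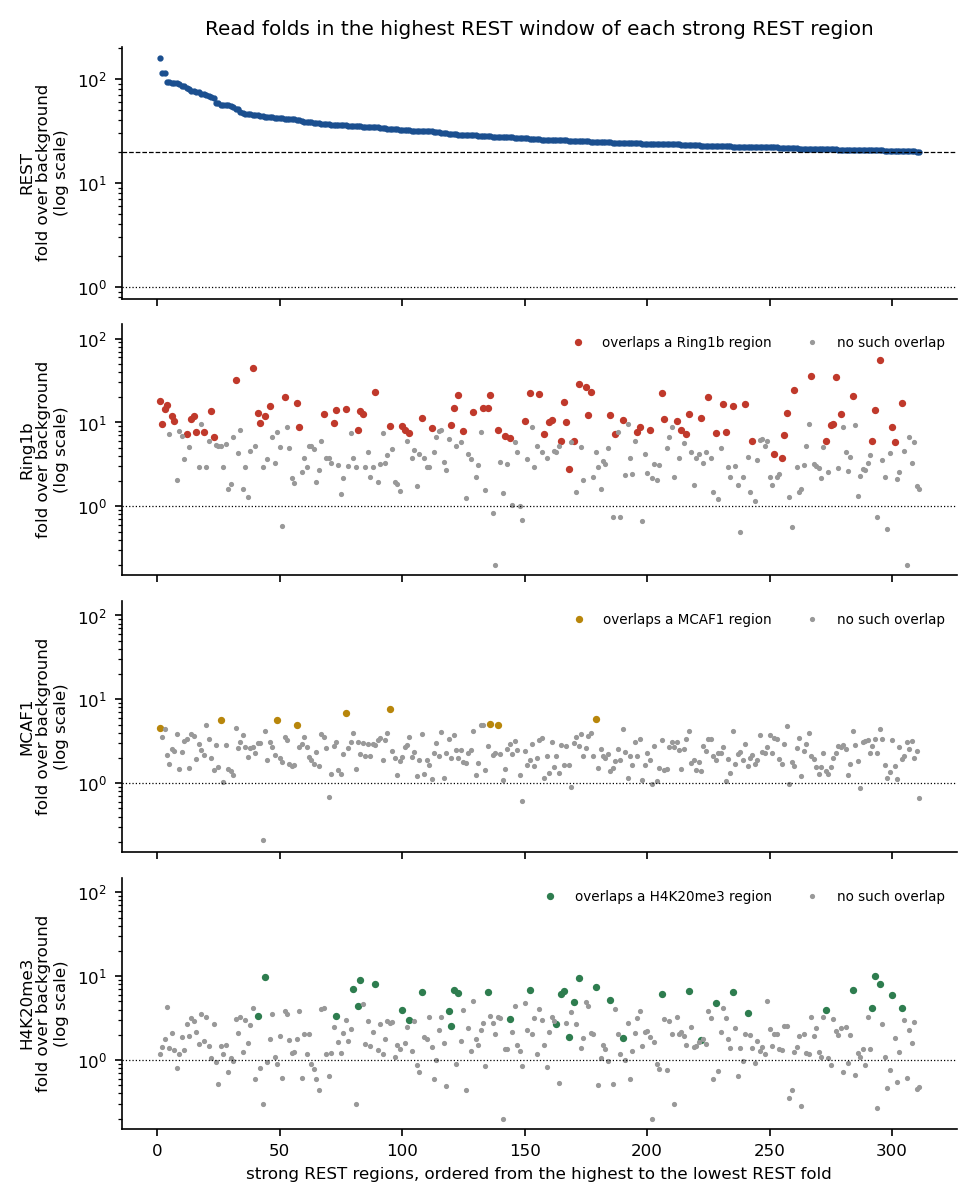
Fold over background of the 4 libraries (log axis) in the highest REST window of each of the 311 strong REST regions, ordered by REST fold. Coloured points in the lower panels overlap an enriched region of that library, the dashed line marks 20-fold, dotted lines mark background, and folds of 0 are drawn at the lower edge. Ring1b calls are spread over the whole REST range, and H4K20me3 calls are missing from the highest REST folds. The 42 regions of at least 20-fold called in all 4 libraries, and so also for H4K20me3, are not drawn.

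Most strong regions held a single REST maximum. Of the REST reads within 500 bp of the summit, a median of 80.5% lay within 100 bp of it, a value that the choice by REST reads favours. The joined regions were 1500 bp wide in 245 cases, 2000 bp in 61, 2500 bp in 2, 3000 bp in 2 and 3500 bp in 1. Windows of 1000 bp every 500 bp set the scale of these widths, and the median width was 750 bp with windows of 500 bp. A second maximum at least 300 bp from the summit reached 25% of the first in 23 regions and 50% in 6. The median second maximum was 6.67% of the first.

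The regions with a strong second maximum were named after their values were seen. The widest region, chr9:108681501-108685000, had 65.5-fold REST and a second maximum of 50% at 1145 bp. In chr1:74789501-74792500, with 25.5-fold REST, the second maximum was 73.5% of the first at 966 bp. In chr13:9010001-9012000 it was 70% at 347 bp, from 14 reads against 20 at the summit. Among the 10 highest folds, chr4:150447501-150449500 had a second maximum of 44.1% at 426 bp. These regions hold paired REST maxima within one joined call.

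Reads on the 2 strands were balanced in most strong regions. The plus strand share lay between 40% and 60% in 262 of 311 regions and outside 30% to 70% in 4. Plus strand read starts were most dense 37 bp before the summit and minus strand starts 37 bp after it, an offset of 74 bp in strong and in weaker regions. The REST profile was 120 bp wide at 50% of its maximum in strong and in weaker regions. The summits were placed from the same REST reads after their shift of 75 bp. This favours a narrow REST profile and strand maxima at a set distance from the summit. The offset and the width are therefore given as descriptions, and the offset cannot serve as a measure of fragment length. The offset was 74 bp in every setting in which it was recomputed, and none of these changed the shift. The part of summit placement in the offset and the width was not tested. A shift of 37 bp in place of 75 bp gave 306 strong regions. Repeated positions made up 26.4% of REST reads in the highest windows (25.9% to 26.9%), against 12.6% over the nuclear genome.

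Ring1b was called at about 1 in 3 strong regions. Ring1b regions overlapped 100 of 311 strong regions (32.2%, 27.0% to 37.7%) and 833 of 2193 weaker regions (38.0%, 35.9% to 40.1%), while 1.08% of covered windows overlapped a Ring1b region. Strong regions, of 1500 to 3500 bp, are wider than these windows of 1000 bp, which favours overlap with the regions of each other library. By the Poisson test with Benjamini-Hochberg adjustment over all covered windows, Ring1b passed an adjusted p of 0.05 in 172 strong windows (55.3%) and 1252 weaker windows (57.1%), against 1.57% of covered windows. The median Ring1b fold was 4.80 (4.19 to 5.22) in strong regions and 5.11 (4.78 to 5.40) in weaker regions. The intervals of these shares and medians overlap between the classes. With windows of 500 bp the Ring1b share of strong regions was 19.2%.

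MCAF1 was called at few strong regions, but its reads were raised in many. MCAF1 regions overlapped 9 strong regions (2.89%, 1.33% to 5.42%) and 131 weaker regions (5.97%, 5.02% to 7.05%), against 0.161% of covered windows. Its test was passed in 130 strong windows (41.8%) and 982 weaker windows (44.8%), against 1.35% of covered windows. The median MCAF1 fold was 2.30 in strong regions and 2.28 in weaker regions. The MCAF1 share of strong regions was 1.30% at equal depth, 6.16% with reads of 2 locations added and 10.2% with the genome mean as background.

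H4K20me3 was called at about 1 in 8 strong regions. H4K20me3 regions overlapped 39 strong regions (12.5%, 9.07% to 16.7%) and 508 weaker regions (23.2%, 21.4% to 24.99%), against 0.801% of covered windows. Its test was passed in 95 strong windows (30.5%, 25.5% to 35.99%) and 998 weaker windows (45.5%, 43.4% to 47.6%), against 2.15% of covered windows. The median H4K20me3 fold was 1.86 (1.65 to 2.07) in strong regions and 2.36 (2.25 to 2.48) in weaker regions. The H4K20me3 reads were below background in 59 of 311 strong windows and 368 of 2193 weaker windows. A background that is the larger of the genome and local mean favours such windows. The share of all covered windows below background was not counted. The H4K20me3 share of strong regions was 5.54% at equal depth and 6.96% with windows of 500 bp.

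The exclusion of regions called in all 4 libraries bears on these shares, because it removed 42 of 353 regions of at least 20-fold (11.9%) and 163 of 2356 below it (6.92%). With those regions put back, Ring1b overlapped 40.2% of strong and 42.3% of weaker regions. H4K20me3 then overlapped 22.9% of strong regions (18.7% to 27.7%) and 28.5% of weaker regions (26.7% to 30.4%), a smaller gap with overlapping intervals. MCAF1 then overlapped 14.4% of strong regions (10.95% to 18.6%) and 12.5% of weaker regions (11.2% to 13.9%), so the order of the classes turned round.

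The combinations of calls were uneven. No other library was called at 204 strong regions (65.6%, 60.02% to 70.9%) and 1199 weaker regions (54.7%, 52.6% to 56.8%). Ring1b was the single other call at 60 strong regions, Ring1b with H4K20me3 at 34 and Ring1b with MCAF1 at 6. H4K20me3 without Ring1b was found at 4 strong regions, MCAF1 alone at 2, and both together without Ring1b at 1. Of the 39 strong regions with an H4K20me3 call, 34 thus also had a Ring1b call, as had 365 of 508 weaker regions with one. Calls of all 3 other libraries are absent from both classes by the exclusion. The share of all covered windows in each combination of calls was not counted. A call asks for more than the test across windows: 95 strong windows passed no test, against 204 strong regions without a call.

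By the test across windows, 95 strong windows passed in none of the other libraries, 84 in 1, 83 in 2 and 49 in all 3. The weaker windows were divided into 762, 300, 461 and 670 in the same order. Of all covered windows, 96.5% passed in none, 2.33% in 1, 0.874% in 2 and 0.331% in all 3. All 3 tests were passed in 15.8% of strong windows (11.9% to 20.3%) and 30.6% of weaker windows (28.6% to 32.5%), and the same exclusion acts on this share.

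Within the strong regions the REST fold was only loosely related to the other folds. Across the 311 regions, Spearman's rho with the REST fold was 0.149 (Ring1b), 0.133 (MCAF1) and 0.0249 (H4K20me3). Between the other libraries rho was 0.601 for Ring1b and H4K20me3, 0.428 for MCAF1 and H4K20me3 and 0.410 for Ring1b and MCAF1. The choice of regions by REST fold limits the range of the REST folds, which bears on the first set of rho values. The exclusion of regions called in all 4 libraries bears on all of them. The part of this choice in the rho values was not tested. These are descriptions across regions of the same libraries, and all folds share the same windows.

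In the 194 regions of 20 to 30-fold REST, 33.0% overlapped a Ring1b region and 14.9% an H4K20me3 region. The 84 regions of 30 to 50-fold had shares of 26.2% and 11.9%. In the 21 regions of 50 to 80-fold the shares were 33.3% (14.6% to 57.0%) for Ring1b and 0 for H4K20me3, with an upper limit of 16.1%. In the 12 regions of 80-fold and above they were 58.3% (27.7% to 84.8%) for Ring1b and 0 for H4K20me3, with an upper limit of 26.5%. The median H4K20me3 fold was 1.996, 1.77, 1.57 and 1.43 in these bands, and the median Ring1b fold 4.47, 4.50, 5.49 and 8.71. The bands leave out the 42 regions of at least 20-fold called in all 4 libraries, each with an H4K20me3 call. The part of this exclusion in the shares was not tested. The intervals of the Ring1b shares overlap between all bands. The interval of the Ring1b median in the 12 regions of 80-fold and above, 6.85 to 14.4, lies above those of the 20 to 30-fold band (3.73 to 5.22) and the 30 to 50-fold band (3.73 to 5.97), and no test between bands was made.

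The 5 regions with the highest Ring1b folds had REST folds between 20.6 and 51.6. The region at chr3:67061001-67062500 had 80 Ring1b reads, 55.0 times background, and 28 REST reads, 20.6-fold, with 7.98-fold H4K20me3. In chr13:9010001-9012000 Ring1b was 44.7-fold and REST 45.4-fold. The third, chrX:83490501-83492000, had 35.8-fold Ring1b and 21.3-fold REST, and the fifth, chr9:75469001-75470500, had 31.8-fold Ring1b and 51.6-fold REST.

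The highest H4K20me3 fold, 10.04, was at chr1:3660001-3661500 with 20.6-fold REST and 14.2-fold Ring1b. At chr2:21284501-21287500 H4K20me3 was 9.75-fold, REST 43.4-fold and Ring1b 11.9-fold. At chr6:39801001-39802500 H4K20me3 was 9.46-fold, REST 25.3-fold and Ring1b 28.6-fold. All 3 regions overlapped a Ring1b region. The highest MCAF1 folds were 7.75 at chr2:118470501-118472000, 6.78 at chr13:54767501-54769000 and 5.84 at chr14:78949501-78951000.

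Most Ring1b regions met by strong REST regions were joined from few windows. Their median width was 1500 bp, 68 of 100 were at most 1500 bp wide, and 14 were wider than 3 kb. Calls in windows of 1000 bp every 500 bp cannot be narrower than 1000 bp, so most widths are close to the least that the rule allows. The H4K20me3 regions met had the same median width, with 27 of 39 at most 1500 bp wide. Widths of the remaining Ring1b regions were not set beside them. The Ring1b and REST maxima fell in the same window in 51 cases and within 500 bp in 81. The overlap of narrow regions in windows every 500 bp favours such close maxima. The widest Ring1b region met was 18000 bp long, at chr5:120684001-120702000, and the strong REST region stood at its left edge with 21.5-fold REST. The 14 strong regions in wide Ring1b regions had REST folds of 20.3 to 34.2, and this grouping was chosen after the values were seen.

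**Figure D2:**
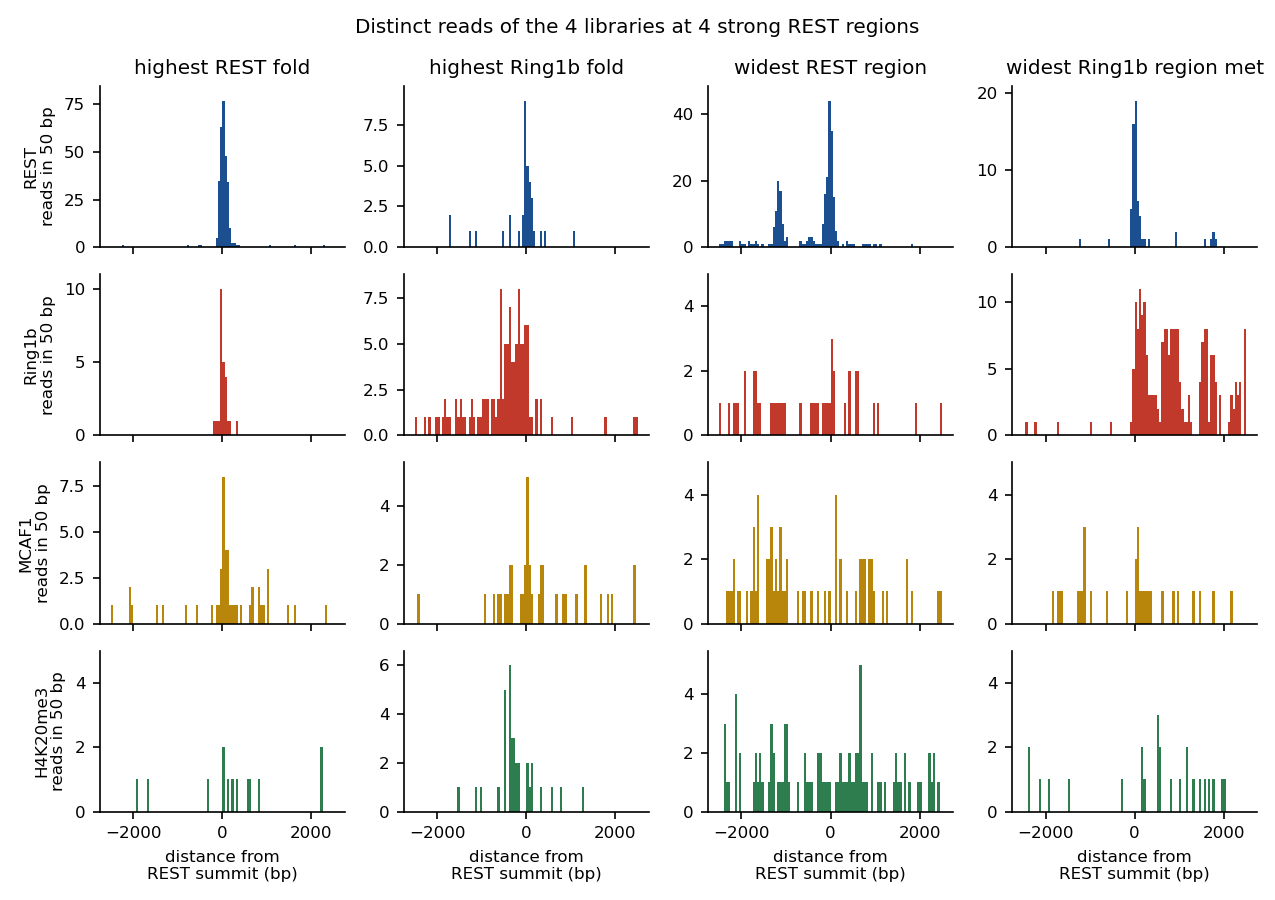
Distinct reads in 50 bp bins around the REST summit (x axis, bp) at 4 strong REST regions (columns) in the 4 libraries (rows, each with its own y axis). Ring1b is narrow and centred at the region with the highest REST fold, lies to one side of the summit at the region with the highest Ring1b fold, and continues to the right of the summit in the 18000 bp Ring1b region. The widest REST region has a second REST maximum 1145 bp from its summit.

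Averaged over the strong regions, Ring1b and MCAF1 reads were centred on the REST summit. Ring1b density was 22.0 times its genome mean within 100 bp of the summit, 8.92 times at 100 to 250 bp and 2.30 times at 2000 to 5000 bp. MCAF1 density was 6.58, 3.38 and 1.34 times its genome mean in the same bands. Over the flank at 3 to 5 kb, the central 200 bp held 9.64 times the Ring1b density (9.20 to 10.1) in strong regions and 7.50 times (7.35 to 7.65) in weaker regions. For MCAF1 these ratios were 4.89 (4.68 to 5.11) in strong regions and 3.34 (3.28 to 3.40) in weaker regions. The Ring1b profile was 160 bp wide at 50% of its maximum in strong regions and 340 bp wide in weaker regions. Weaker summits were placed from fewer REST reads, a median of 19 per highest window against 53 in strong regions. The part of summit placement in these widths and ratios was not tested.

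The Ring1b maximum was also present where no Ring1b region was called. In the 211 strong regions without one, Ring1b density was 14.8 times the genome mean within 100 bp of the summit (13.9 to 15.9) and 1.75 times at 250 to 500 bp. In the 100 strong regions with one, it was 37.03 times (34.8 to 39.4) and 9.64 times at the same distances. At least 1 Ring1b read lay within 100 bp of the summit in 301 of 311 strong regions (96.8%) and 91.0% of weaker regions, against 17.7% for the centres of all covered windows. For MCAF1 the shares were 98.4% of strong regions, 97.3% of weaker regions and 51.5% of window centres. For H4K20me3 they were 81.4% of strong regions, 84.9% of weaker regions and 38.2% of window centres. Whether an input library would show the same maxima was not tested.

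Some of the Ring1b reads started at exactly the REST read positions. In the highest windows 516 of 3909 Ring1b reads had the position and strand of a REST read, against a mean of 438 at offsets of 1 to 10 bp, a ratio of 1.18 (1.08 to 1.29), and the single offsets gave 381 to 496. The ratio was 0.984 (0.890 to 1.09) for MCAF1 and 1.17 (0.9999 to 1.36) for H4K20me3. For H4K20me3, 169 identical positions lay within the 113 to 180 of the single offsets. In weaker regions the Ring1b ratio was 1.22 (1.13 to 1.31), so the excess was not particular to strong regions. These intervals treat the mean over the offsets as fixed. Against the pooled Ring1b, MCAF1 and H4K20me3 reads as background, 288 of 311 strong regions (92.6%) overlapped a REST call, and 70 of them still had 20-fold. This count uses the REST reads that chose the regions and is a description. The number of strong regions under that background was 74.

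**Figure D3:**
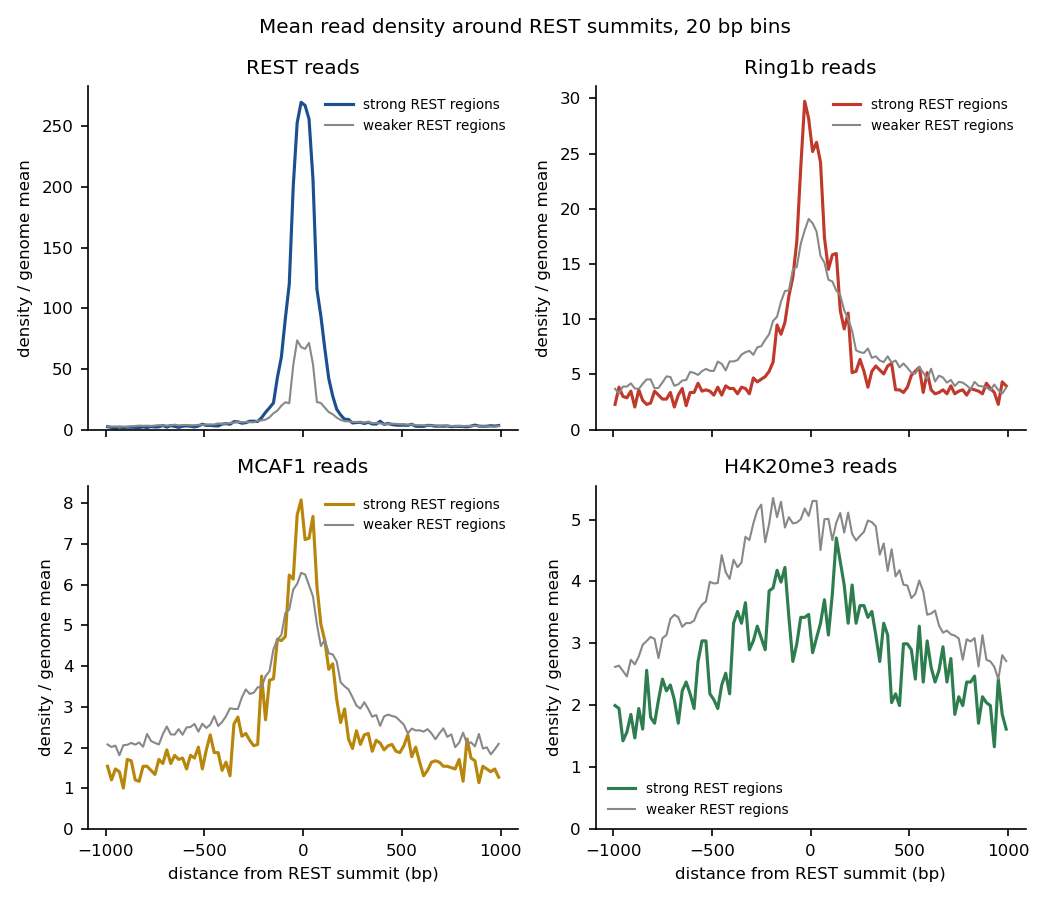
Mean read density over the genome mean (y axis, each panel with its own scale) by distance from the REST summit in 20 bp bins, in the 311 strong (coloured) and the 2193 weaker REST regions (grey). Ring1b and MCAF1 reads have a narrow maximum at the summit of strong regions, and H4K20me3 reads form a broad rise with a shallow minimum at the summit.

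H4K20me3 reads were spread more broadly around the strong summits. Their density was 3.21 times the genome mean within 100 bp of the strong summits (2.97 to 3.46) and 3.80 times at 100 to 250 bp (3.58 to 4.02), a ratio of 0.846 (0.768 to 0.930). In weaker regions the ratio was 1.01 (0.985 to 1.04). The ratio was 0.759 (0.656 to 0.877) in strong regions with a Ring1b region and 0.923 (0.811 to 1.05) in those without one, where the interval includes 1. This comparison was chosen after the profile was seen. It rests on the exclusion of regions called in all 4 libraries: with those 42 regions put back the ratio was 1.19 (1.12 to 1.25), and in those 42 alone it was 1.41 (1.32 to 1.51). With reads of 2 locations added it was 0.968 (0.881 to 1.06).

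**Figure D4:**
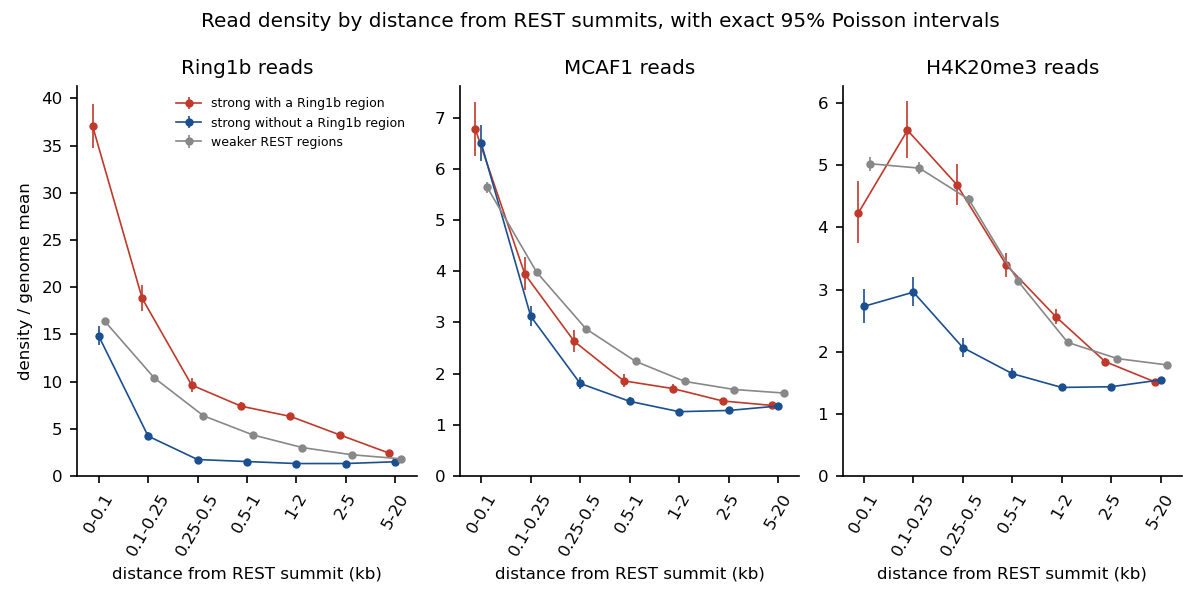
Density of Ring1b, MCAF1 and H4K20me3 reads over the genome mean (y axis) in bands of distance from the REST summit (x axis, kb), in strong REST regions with and without a Ring1b region and in weaker REST regions. Bars are exact 95% Poisson intervals. H4K20me3 is lower within 0.1 kb than at 0.1 to 0.25 kb in strong regions with a Ring1b region, and the MCAF1 intervals within 0.1 kb overlap between strong regions with and without one.

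The strong regions were spread over all autosomes and were few on the X chromosome. The median distance to the nearest strong region was 1527 kb, 111 had another within 1000 kb, 30 within 100 kb and 8 within 10 kb. The closest pair, chr12:102951001-102952500 and chr12:102955501-102957000, had summits 4535 bp apart, with 20.5 and 34.8-fold REST. Its Ring1b folds were 2.22 and 12.8. The next pair, chr2:179122501-179124000 and chr2:179129501-179131000, had summits 6785 bp apart and Ring1b folds of 2.98 and 2.24. In the third pair, on chromosome 13 with summits 7645 bp apart, the Ring1b folds were 1.34 and 14.7. Ring1b folds thus lay apart in 2 of the 3 closest pairs.

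Chromosome 2 had the most strong regions, 39, or 0.237 per covered Mb (0.169 to 0.324), and chromosome 3 had 9, or 0.0633 (0.0289 to 0.120). Chromosome 8 had 11 strong regions beside 165 weaker ones, and chromosome 14 had 17 strong regions beside 60 weaker ones. The X chromosome had 2 strong regions, 0.124 times the autosomal number per Mb (0.0150 to 0.448). Its ratio was 0.159 (0.0942 to 0.251) for weaker regions and 0.402 for all REST reads. The X chromosome held 0.564 REST reads per kb against 1.36 over all chromosomes, and the background is never below the genome mean. A window on X can therefore need a larger excess over its own surroundings to be called. The part of the lower X read density in the region numbers was not tested.

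**Figure D5:**
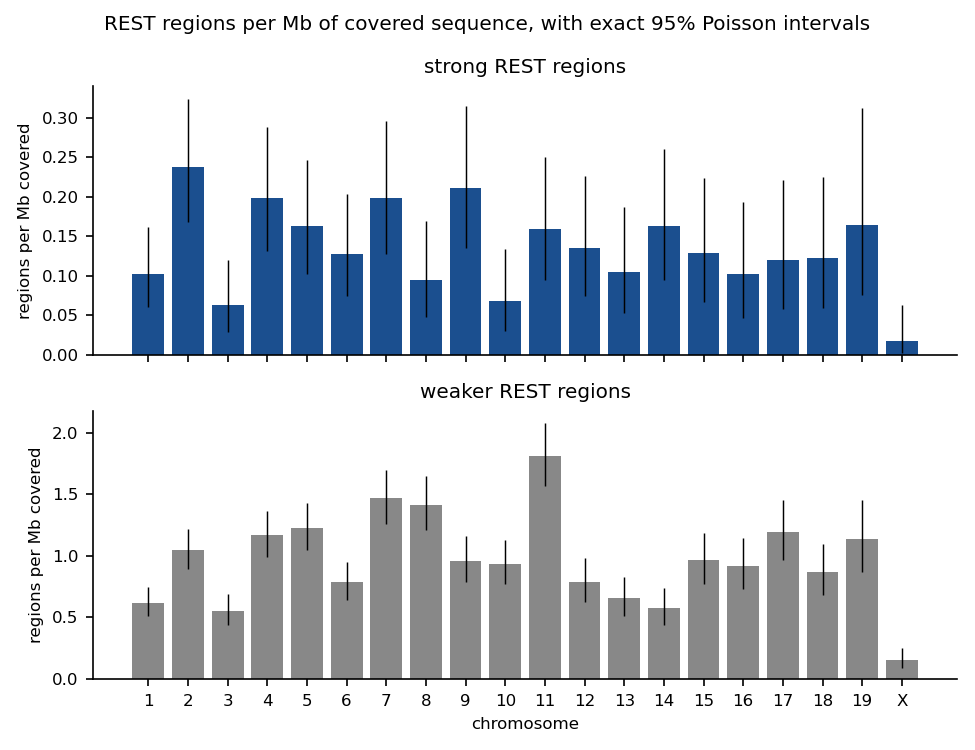
Strong (top) and weaker (bottom) REST regions per Mb of covered sequence (y axis) on each autosome and the X chromosome (x axis), with exact 95% Poisson intervals. Chromosome 2 is highest and chromosome 3 lowest among the autosomes for strong regions, and the X chromosome is below every autosome in both panels. Chromosome Y is not drawn.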

How the data were processed

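The deposited files hold signed read positions, 1 per alignment, with no count per feature. The authors, per the file headers, aligned reads to mm8 with Bowtie, allowing 2 seed mismatches, a mismatch quality sum of 70 and up to 2 locations, with a seed of 26 bases (REST, Ring1b) or 36 bases (MCAF1, H4K20me3). The version, and whether a minus position is the leftmost or the 5′ base, are not given in the sources used here.

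Reads with 1 location were kept once per position and strand and shifted 75 bp towards their 3′ end. Windows of 1000 bp every 500 bp were called at a Poisson probability of at most 1e-09 and at least 5 times background, and overlapping calls were joined. In a REST window with the genome mean as background, this probability required 10.3-fold. Sharing required 1 bp of overlap. The Poisson test per window was adjusted by Benjamini-Hochberg over 4598722 covered windows. Shares have Clopper-Pearson intervals, read numbers Poisson intervals and medians order-statistic intervals over regions.

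The members, lists and comparisons were chosen with earlier results of these data known. Named regions are the 10 highest, the 5 on each side of 20-fold, the highest 5 by Ring1b and 3 by H4K20me3 and MCAF1, the 3 widest and the 3 closest pairs, of which the text gives examples. The reference tables here are of another build than mm8, so the planned gene context was not done. Alternatives changed the shift, window, threshold, background, depth, repeated reads and the exclusion. The calling step was tested on simulated data. Calculations ran in scipy 1.17.1 and numpy 2.4.6 under Python 3.11.15, with figures from matplotlib 3.10.9.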

Additional observations from a re-analysis of the deposited data

Results flagged for a closer look

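Reads with 2 reported locations were outside the main measurement, and some fell in the highest windows of strong REST regions. There were 1088 such REST reads, 18.0 times their genome mean (17.0 to 19.1), spread over 205 of 311 regions. There were 224 such Ring1b reads, 4.43 times their genome mean (3.87 to 5.05), in 90 regions. The 65 MCAF1 reads and 44 H4K20me3 reads were 0.653 and 0.580 times their genome means. The REST reads were most numerous at chr4:139530501-139532000, with 99 beside 312 reads of 1 location, at chr4:151642501-151644500, with 92 beside 214, and at chr8:14072001-14073500, with 64 beside 194.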

How the results depend on the processing

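Of 174 values recomputed under 15 alternative settings, 135 stayed within their interval or tolerance, 38 moved and 1 reversed. The number of strong regions was 948 with windows of 500 bp, 639 with the genome mean as background, 585 from 15-fold, 117 from 30-fold and 74 with the other 3 libraries as background. The Ring1b share was 25% at a threshold of 1e-12, 41.6% at 1e-06, 19.2% with windows of 500 bp and 40.2% with regions called in all 4 libraries kept. The Ring1b median was 5.41 with windows of 500 bp, 4.07 from 15-fold and 5.49 with those regions kept. The H4K20me3 share was 6.96% with windows of 500 bp, 18.0% with the genome mean, 8.55% from 30-fold, 22.9% with those regions kept and 5.54% at equal depth, and its median was 2.66 with the genome mean. The MCAF1 share was 10.2% with the genome mean, 6.16% with reads of 2 locations, 14.4% with those regions kept and 1.30% at equal depth. The MCAF1 median was 3.13 with the genome mean, 2.14 from 15-fold, 2.60 from 30-fold and 2.51 with those regions kept. The median width was 750 bp with windows of 500 bp, the REST profile was 160 bp wide with a shift of 100 bp, and the X ratio was 0 from 30-fold. The H4K20me3 density ratio at the summit reversed to 1.19 with regions called in all 4 libraries kept and was 0.968 with reads of 2 locations. The Ring1b ratio of density within 100 bp to that at 100 to 250 bp, 2.46 in the main setting, was 2.84, 2.01 and 3.02 with shifts of 50, 100 and 37 bp, 2.15 with windows of 500 bp, 2.71 with minus positions as leftmost bases, 2.27 from 15-fold, 3.22 from 30-fold and 1.78 with those regions kept. The 37 bp shift and both density ratios were added after seeing the data. Beyond the construction of each setting, the cause was not tested.

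Of the 311 strong regions, 267 were found again with reads of 2 locations added and 293 at equal depth. No paired analysis was possible because there was 1 library per antibody, and leaving out a replicate was not possible. MCAF1 and H4K20me3 shares depend on depth, as the values at equal depth show.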
